A study of Drosophila melanogaster with 3 samples.

Results

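The small nucleolar RNA (snoRNA) genes of the fly and the promoters of the genes that carry them were examined in 3 chromatin immunoprecipitation libraries. A gene was counted as a snoRNA gene when its symbol begins with snoRNA: or its biotype is snoRNA in the Ensembl annotation BDGP6.54, which gave 273 of the 18277 annotated genes on the chromosome arms used. A host was any longer gene on the same strand, itself no snoRNA gene, whose span holds the whole snoRNA gene, which gave 98 distinct hosts. The libraries came from whole embryos, 0 to 24 h old, of the fly strain CG34224-GFP, in which an insertion expresses the protein of gene CG34224 fused to eGFP; the fusion was precipitated with an antibody against GFP. The labels number the 3 libraries as biological replicates of this 1 strain, and there is no second group. Whole embryos mix all tissues and a day of stages, so a peak cannot be placed in any cell type, and the control experiment that the labels name was not analysed here.

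snoRNAs direct chemical marks onto other RNAs by base pairing. Those with C and D boxes guide 2′-O-methylation and those with H and ACA boxes guide pseudouridylation, mostly of ribosomal RNA; small Cajal body RNAs (scaRNAs) do the same for spliceosomal RNAs, and U3 takes part in the cleavage of the ribosomal RNA precursor. In flies most snoRNAs are cut out of the introns of a longer transcript, so the start site of the host, not that of the snoRNA gene, is usually where transcription begins.

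The annotation fitted that layout. Of the 273 snoRNA genes, 250 had a host and 23 were free-standing; 238 had 1 host, 12 had 2 overlapping hosts, and 244 of the 250 lay in an annotated intron. By symbol, 115 were H/ACA genes (Psi and Or-aca names), 93 were C/D genes (Me and Or-CD names) and 65 were unclassed, among them 16 scaRNA genes. The classes carried the boxes of their kind. TGATGA in the first 20 bases together with CTGA in the last 20 stood in 62 of 93 C/D genes (66.7%) and in 0 of 115 H/ACA genes, and ACA in the last 8 bases stood in 108 of 115 H/ACA genes (93.9%) and in 7 of 93 C/D genes (7.53%). H/ACA genes had a median length of 140 bases (82 to 511) and C/D genes one of 79 bases (46 to 151). The hosts were 28 ribosomal protein genes, 59 other protein-coding genes and 11 non-coding genes, and 59 of the 98 held a single snoRNA gene, whereas 15 held 5 or more. The start of a hosted snoRNA gene lay a median of 1453 bp from the nearest host start (0 to 50634 bp), and 35 of the 250 (14.0%) lay within 500 bp of one.

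The following snoRNA genes show both box types and both layouts, in the sequence of the dm6 assembly (Release 6) from RefSeq, 5′ to 3′, as DNA. Capitals mark the C box (TGATGA) and D box (CTGA) of the C/D gene and the ACA of the H/ACA genes. The first, guide for a 2′-O-methylation by its name, lies in the non-coding host Uhg2, the second in the ribosomal protein gene RpS29, and the third has no host.
snoRNA:Me18S-A1576 (chr2L:9894795-9894907, minus strand): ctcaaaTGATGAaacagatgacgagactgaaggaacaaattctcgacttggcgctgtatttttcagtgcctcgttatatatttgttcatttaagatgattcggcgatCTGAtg
snoRNA:Psi18S-1275 (chr3R:9778398-9778537, plus strand): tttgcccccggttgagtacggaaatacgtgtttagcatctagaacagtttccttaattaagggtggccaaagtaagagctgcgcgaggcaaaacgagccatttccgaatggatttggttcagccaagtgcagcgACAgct
snoRNA:Psi28S-3342 (chrX:5524302-5524465, minus strand): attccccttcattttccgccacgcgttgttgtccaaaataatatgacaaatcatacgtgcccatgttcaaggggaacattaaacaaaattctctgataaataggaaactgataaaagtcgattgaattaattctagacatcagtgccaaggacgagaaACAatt

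Host promoters are shown for the contrast described further on, between ribosomal protein hosts that had a peak and those that had none; they were chosen after their values were seen, among ribosomal protein hosts with a single annotated start. Each runs from 150 bases before the start to 10 after it, on the gene's strand, so that base 151 is the annotated start. Capitals mark TATCGATA, the 8-letter DNA replication-related element (DRE), and CTTTT within 10 bases of the start. Those with a peak were picked for holding the DRE and those without for holding CTTTT, so they illustrate the contrast and are no evidence for it. Not shown for that reason are RpL14, with a peak and no DRE, and RpL13A, RpL4 and RpS20, with neither a called peak nor CTTTT. The first 3, of RpS6, RpS12 and RpL10Ab, had a peak and hold 1 DRE each, beginning 55, 41 and 77 bases before the start.
RpS6 (chrX:7901321-7901481, minus strand): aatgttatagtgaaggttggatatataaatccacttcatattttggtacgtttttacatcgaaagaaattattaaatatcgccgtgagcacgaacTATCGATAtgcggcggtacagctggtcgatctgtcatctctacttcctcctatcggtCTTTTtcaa
RpS12 (chr3L:13023202-13023362, plus strand): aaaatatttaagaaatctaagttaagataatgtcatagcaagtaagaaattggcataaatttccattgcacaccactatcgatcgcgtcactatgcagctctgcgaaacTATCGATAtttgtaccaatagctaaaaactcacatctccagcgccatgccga
RpL10Ab (chr3L:11822701-11822861, plus strand): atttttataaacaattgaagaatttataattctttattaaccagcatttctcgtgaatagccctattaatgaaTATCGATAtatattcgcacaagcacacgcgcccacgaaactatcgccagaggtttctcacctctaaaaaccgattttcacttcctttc
The other two, of RpL23A with 4 snoRNA genes and RpL22 with 2, had no peak in any thresholded list, though weaker peaks in the ranked lists, and hold no DRE in this stretch, and each has CTTTT at its start.
RpL23A (chr3L:1668644-1668804, minus strand): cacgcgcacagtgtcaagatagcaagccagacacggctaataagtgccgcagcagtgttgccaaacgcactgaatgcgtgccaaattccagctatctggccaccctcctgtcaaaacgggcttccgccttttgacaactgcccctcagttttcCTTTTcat
RpL22 (chrX:765120-765280, minus strand): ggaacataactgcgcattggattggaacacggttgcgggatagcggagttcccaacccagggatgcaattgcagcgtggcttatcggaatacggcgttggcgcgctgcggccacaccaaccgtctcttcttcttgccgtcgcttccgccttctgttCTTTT

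Binding was read from peak lists, since the files give no read counts: the depth of each library is unknown, and only the number of peaks it gave can be compared. The authors' conservative list holds 4395 peaks from the 3 libraries together, and the lists of replicates 1, 2 and 3 hold 2667, 2844 and 4146. A gene was called bound when the summit of a listed peak lay within 500 bp of one of its annotated starts. The signal of a peak is the authors' value on an unstated scale, so it was compared only within a list, as a rank or as a percentile in which 100 is the strongest peak. Shares carry 95% Wilson intervals, which cover counting error over genes only and not the spread between libraries.

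Host promoters had a peak more often than protein-coding promoters at large, whereas the snoRNA genes' own starts had one less often than genes in general, at a share closer to that of other non-coding RNA genes. In the conservative list 52 of the 98 hosts (53.1%, interval 43.3 to 62.6%) had a promoter peak, where 24.8% of all annotated genes and 29.7% of protein-coding genes had one. The count was 44 in replicate 1 (44.9%), where the backgrounds were 17.2% and 21.1%, and 44 in replicate 2 (44.9%), where they were 18.2% and 22.3%. Replicate 3 gave 49 hosts, beside 23.9% and 28.6%. The mean over the 3 replicates was 46.6% ± 2.95 (SD, n = 3) for hosts, 24.0% ± 4.07 for protein-coding genes and 19.8% ± 3.60 for all genes, and the host share was the highest of the 3 in every list. Counted by snoRNA gene, 126 of the 250 hosted genes (50.4%) had a bound host in the conservative list, and 129, 114 and 139 had one in replicates 1, 2 and 3, a mean of 50.9% ± 5.03 (SD, n = 3). These shares moved with a single gene, because Arpc2 holds 17 snoRNA genes: without it they were 54.1% in the conservative list and 55.4%, 41.6% and 52.4% in the replicates.

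**Figure D1:**
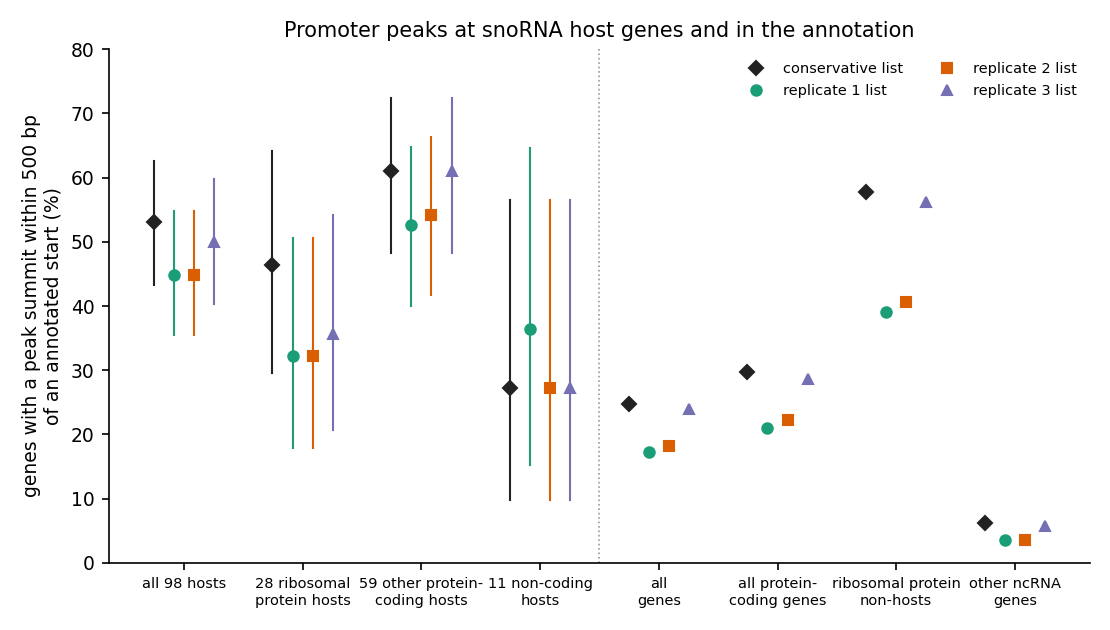
Share of genes with a peak summit within 500 bp of an annotated start (%), for hosts by class (left of the dotted line, with 95% Wilson intervals) and for groups of the annotation (right), in the conservative list and the 3 replicate lists. All 98 hosts lie at 44.9 to 53.1%, above all protein-coding genes at 21.1 to 29.7%, while the ribosomal protein hosts lie below the ribosomal protein genes that hold no snoRNA gene in each list.

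Of the host classes, the other protein-coding genes had the highest share in every list. Among the 59 other protein-coding hosts, 36 were bound in the conservative list (61.0%, interval 48.3 to 72.4%), and 31, 32 and 36 were in replicates 1, 2 and 3. They include sta, the gene of ribosomal protein SA, whose symbol keeps it out of the ribosomal protein class. Among the 28 ribosomal protein hosts, 13 were bound (46.4%, interval 29.5 to 64.2%), and 9, 9 and 10 were in the replicates. This was above the share of protein-coding genes but not above that of their own family: of the 64 RpL and RpS genes that hold no snoRNA gene, 57.8% were bound in the conservative list. Of the 11 non-coding hosts, 3 were bound (27.3%, interval 9.75 to 56.6%), namely Uhg2, Uhg8 and CR33222, beside 6.18% of the non-coding RNA genes that are no snoRNA gene. CR33222 is annotated as a pseudogene, a kind of gene that this background leaves out. Its peak is also that of RpS6, already counted among the ribosomal protein hosts. The intervals of the 3 host classes overlapped, and the differences between classes were not tested. For none of the 3 non-coding hosts was the host's own start the nearest one to the summit.

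Hosts often have several annotated starts, each of which gives a chance of a call. With 1 start, 21 of 40 protein-coding hosts were bound (52.5%), beside 25.3% of protein-coding genes with 1 start; with 2 or more, 28 of 47 hosts were bound (59.6%), beside 41.9%. By number of snoRNA genes held, the share was 32 of 59 (54.2%) for hosts of 1 snoRNA gene, 13 of 24 (54.2%) for hosts of 2 to 4, and 7 of 15 (46.7%) for hosts of 5 or more.

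The host calls were largely shared between lists. The conservative list comes from the same 3 libraries as the replicate lists, so part of this overlap is built in. Agreement was not counted over all genes, so it cannot be called a trait of hosts. All 36 hosts bound in each of the 3 replicate lists were also bound in the conservative list. Of the 44 hosts in replicate 1, 41 were in the conservative list; the counts were 43 of 44 for replicate 2 and 44 of 49 for replicate 3. RpL30, RpS16, RpL14 and AdamTS-A were called in the conservative list and in no replicate list. In the other direction, Arpc2, Hrb98DE and Aladin were called in 2 replicates, and Uhg1, Rbfox1 and RpL3 in 1, without a conservative peak.

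Host peaks spanned nearly the whole range of strength. The 69 conservative peaks at host starts had a median percentile of 58.3 (3.55 to 99.7), beside 54.4 for the 3773 peaks at any start. In replicates 1, 2 and 3 the medians were 49.98, 46.1 and 57.1, beside 52.7, 52.5 and 54.1, so the order was not the same in every list. Their summits lay a median of 84 bp upstream of the host's own start, at -84 bp, beside -30 bp for all promoter peaks. Of the host peaks, 63.8% lay within 150 bp of a host start, beside 82.5% of all promoter peaks within 150 bp of a start. Host summits were measured to the host even where another gene's start was nearer, so these values are not like for like with peaks at any start. For 38 of the 52 bound hosts the start nearest to the strongest summit was the host's own; for 14 it was another gene's, and 21 had another gene's start within 500 bp of the summit. At those promoters the lists cannot say which of the neighbouring starts a peak belongs to. Only the strongest peak of each host entered these counts, and some of the 14, such as Irbp and Nop60B, also had a weaker peak nearer their own start. The same counts were not made over all promoter peaks, so they do not set hosts apart from other genes.

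The strongest host peak stood at hts, the gene of the membrane skeleton protein adducin, which holds snoRNA:hts-a. Its signal was 1441 in the conservative list (rank 12 of 4393 peaks on the arms) and 371, 383 and 680 in replicates 1, 2 and 3, and the summit lay 95 bp upstream of the hts start. hts thus ranked among the strongest peaks of the conservative list, though the start of CalpA also lay within 500 bp of that summit.

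Uhg2, a non-coding RNA gene that holds 4 snoRNA genes including 2 U14 genes, stood at rank 34. Its signal was 1144, with 267, 334 and 534 in the replicates. The summit lay 159 bp upstream of the Uhg2 start and 125 bp from the start of Bka, so that this peak sits between a pair of neighbouring genes. The bases within 50 of the summit, shown because no other non-coding host had as strong a peak, are 78.2% A or T and hold neither the DRE nor its core ATCGAT.
Uhg2 (chr2L:9895112-9895212, minus strand): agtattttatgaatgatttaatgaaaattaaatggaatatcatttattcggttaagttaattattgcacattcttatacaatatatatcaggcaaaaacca

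Strong peaks also stood at drn and kis and at the ribosomal protein genes RpS7 and RpS29. RpS7, with 7 H/ACA genes, had a signal of 815 (rank 153) and 222, 191 and 346 in the replicates, with the summit 63 bp upstream of its own start and no other gene's start near. drn, with 2 C/D genes 12401 and 13446 bp downstream of the nearest host start before them, had a signal of 808 (rank 160) and 212, 221 and 358 in the replicates. kis, the gene of the chromatin remodeller Kismet, had 739 (rank 220) and 217, 192 and 294. RpS29, host of snoRNA:Psi18S-1275 shown above, had 652 (rank 348) and 215, 175 and 265. These 3 summits lay 175, 111 and 49 bp upstream of the start, with no start of another gene within 500 bp.

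Irbp, the Ku70 gene of DNA end joining, had 604 (rank 440) and 149, 153 and 306. Its strongest summit was nearer to the start of mgr, but another conservative summit lay 55 bp from the Irbp start. Tudor-SN, the gene of a Tudor-domain nuclease with 2 snoRNA genes, had 552 (rank 554) and 133, 83.2 and 266. The start of mRpL17 also lay within 500 bp of its summit. Nop60B, the fly dyskerin gene, encodes the pseudouridine synthase of the H/ACA particle and holds 7 snoRNA genes, of which 6 are C/D and 1 is H/ACA; its signal was 504 (rank 673) and 128, 121 and 216. For Nop60B the strongest summit lay 423 bp upstream, nearer to the start of mRpS17, but another conservative summit lay 97 bp from the Nop60B start. Each of these 9 hosts was bound in all 3 replicates, and the 42 bound hosts of lower signal had conservative signals of 79.97 to 501, with 26 of them bound in all 3.

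**Figure D2:**
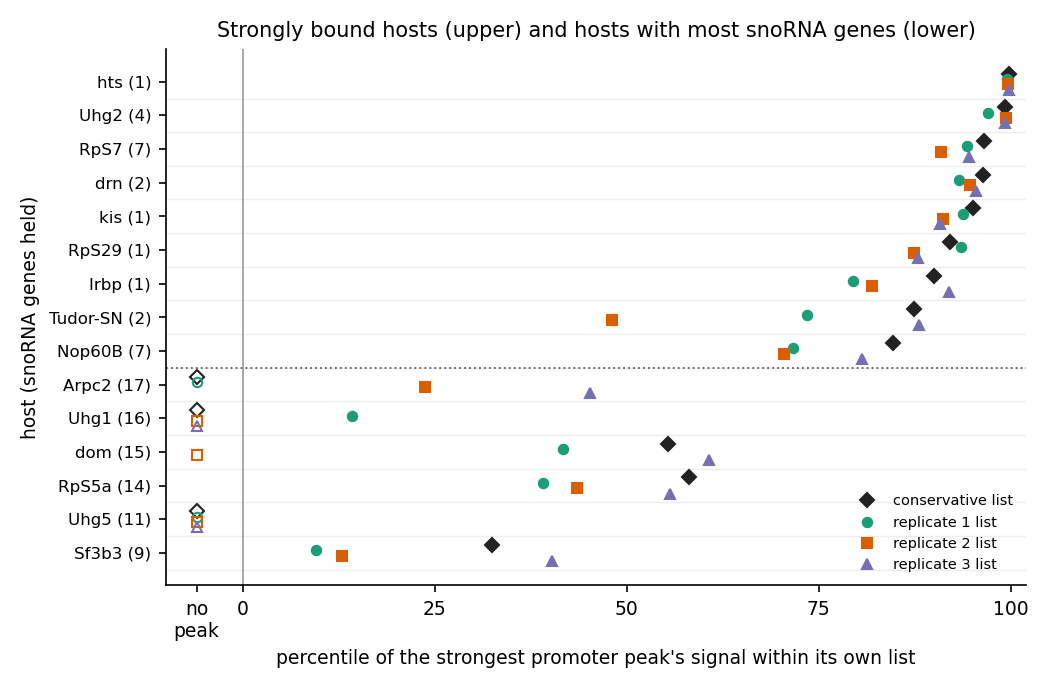
Percentile of the strongest promoter peak within its own list for 9 hosts of high conservative signal (above the dotted line) and for the hosts with most snoRNA genes (below); open symbols mark lists without a peak and brackets give the number of snoRNA genes held. The upper hosts had a peak in every list, whereas Arpc2, Uhg1 and Uhg5 had none in the conservative list.

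The hosts with most snoRNA genes were not the strongly bound ones. Arpc2, a subunit of the actin-nucleating Arp2/3 complex, holds 17 H/ACA genes and had no conservative peak, the nearest summit being 2003 bp away; it had no peak in replicate 1 and signals of 58.4 and 110 in replicates 2 and 3. Uhg1, a non-coding host of 16 snoRNA genes, had a signal of 56.4 in replicate 1 and no peak in the other replicate lists or the conservative one, with a conservative summit 557 bp away, just outside the distance used. Uhg1 therefore stood near the distance limit of a call, whereas the calls at Arpc2 differed between lists.

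dom, the gene of the Domino ATPase that exchanges histone variants, holds 12 H/ACA and 3 C/D genes. Its conservative signal was 247 (rank 1963), with 80.7 and 139 in replicates 1 and 3 and no peak in replicate 2, and the start nearest to its summit was that of CG30394. RpS5a, with 14 H/ACA genes, had 260 (rank 1841) and 78.5, 77.1 and 127 in the replicates. Both were middling peaks of the list, at percentiles 55.3 and 58.1, and only RpS5a of the 5 hosts with most snoRNA genes was bound in every replicate. Uhg5, a non-coding host of 11 C/D genes, had no peak in any of these lists.

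Of the 46 hosts without a conservative peak, Arpc2, Uhg1 and Uhg5 were followed in number of snoRNA genes by kra, a translation regulator gene with 8 H/ACA genes, and by Hrb98DE, an hnRNP gene with 7 H/ACA genes, and Uhg4, a non-coding host of 7. kra and Uhg4 had no peak in the replicate lists, and Hrb98DE had one in 2 of them. The authors' ranked lists, which are not thresholded, hold many more and weaker peaks. There 29 of the 46 (63.0%) had a peak within 500 bp of a start in all 3 replicates and 4 had one in none, beside 29.3% and 31.8% of the 9777 other protein-coding genes without a conservative peak. The highest score there, an irreproducible discovery rate (IDR) value scaled to at most 1000 and set to 0 where there was no ranked peak, had a median over the 46 of 73.5, 122.5 and 317.5 in replicates 1, 2 and 3. Over those other protein-coding genes the medians were 0, 0 and 30, and the lowest score in the thresholded lists was 830. The 46 include non-coding hosts, and the sets compared were not matched for number of annotated starts.

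**Figure D3:**
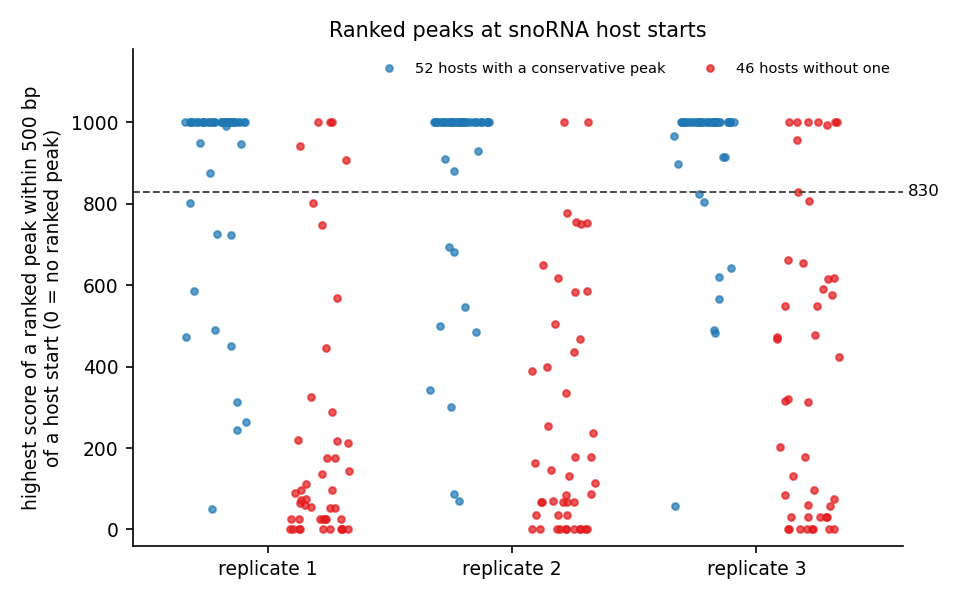
Highest IDR score of a ranked peak within 500 bp of a host start in each replicate, 0 where there was none, for the 52 hosts with a conservative peak and the 46 without; the dashed line marks the lowest score in the thresholded lists, 830. Most hosts with a conservative peak reached 1000, and 10 hosts without one lay at or above the line in at least 1 replicate.

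RpL13A, host of 2 snoRNA genes, stood out among these 46. Its ranked peak had the highest possible score, 1000, in every replicate, with signals of 213, 247 and 353. That placed it at percentiles 93.2, 96.6 and 94.9 among the ranked peaks that score 830 or more, above most host peaks that were called. No thresholded list held the peak. Ranked peaks of such scores were rarely absent from the thresholded list: there were 104 (3.75%), 91 (3.10%) and 148 (3.45%) in replicates 1, 2 and 3. The other members with a ranked peak at or above 830 that was absent were dmt in replicates 1 and 3, kra and tim in replicate 3, and the free-standing snoRNA:185 in all 3 replicates, with scores of 1000, 914 and 1000. The deposited descriptions give the thresholded lists 1 input file more than the ranked lists; whether that file removed these peaks was not tested.

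The starts of the snoRNA genes themselves were bound at a share below that of all genes and slightly above that of other non-coding RNA genes. In the conservative list 23 of 273 (8.42%, interval 5.68 to 12.3%) had a summit within 500 bp, beside 24.8% of all genes and 6.18% of the non-coding RNA genes that are no snoRNA gene. In replicates 1, 2 and 3 the counts were 13, 12 and 17 (4.76%, 4.40% and 6.23%), beside 3.47%, 3.56% and 5.69% of those non-coding RNA genes. The mean was 5.13% ± 0.969 (SD, n = 3), beside 4.24% ± 1.26, a difference smaller than the spread between replicates. Both shares come from the same lists, and that of the snoRNA genes was slightly higher in each replicate. This difference was not tested. By class as read from the symbol, the conservative counts were 10 of 115 H/ACA genes (8.70%), 3 of 93 C/D genes (3.23%) and 10 of 65 unclassed genes (15.4%), with 0 among the 16 scaRNA genes. Unclassed genes may be of either kind: 20 of the 65 carried both C/D boxes and 17 had ACA in the last 8 bases. The class shares therefore hold for the names only. The shares lay further apart by layout than by class. Part of the gap among hosted genes is built in, because a start near a host start shares part of its window with the host promoter. Among hosted genes, 8 of the 35 whose start lay within 500 bp of a host start were bound (22.9%, interval 12.1 to 39.0%), beside 6 of the 215 further away (2.79%, interval 1.29 to 5.95%). Of the 23 free-standing genes, 9 were bound (39.1%, interval 22.2 to 59.2%), on 7 distinct peaks. Only 1 snoRNA gene had a conservative summit inside its own body, and 0 had one in the replicate lists.

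**Figure D4:**
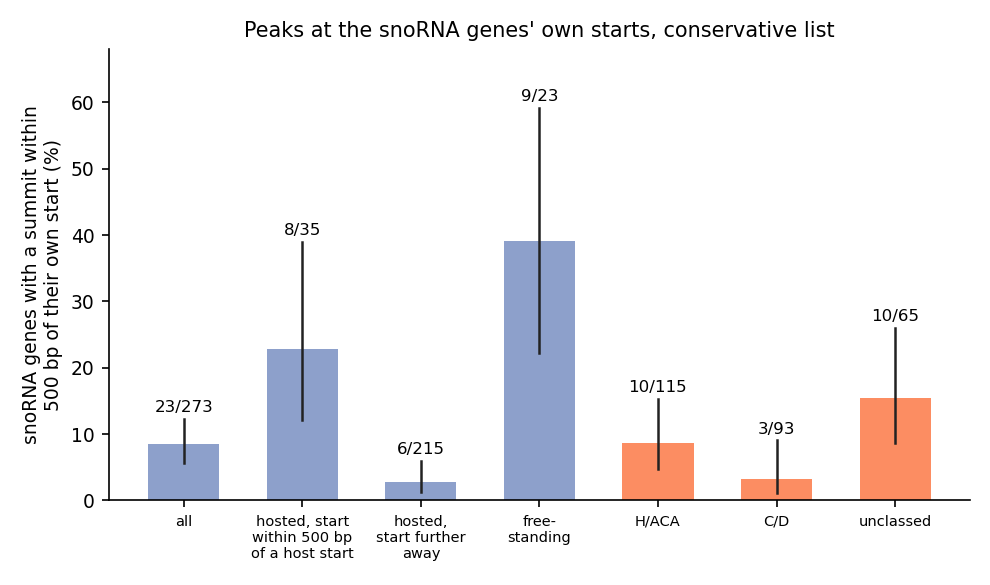
Share of snoRNA genes with a conservative summit within 500 bp of their own start (%), by layout (blue) and by class (orange), with 95% Wilson intervals and counts above the bars. Free-standing genes reach 9 of 23, and hosted genes far from a host start lie at 6 of 215.

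A peak near a snoRNA start in most cases also lay within 500 bp of another annotated start. Of the 23, 10 lay within 500 bp of a host start, 8 lay within 500 bp of the start of a gene that is no host, and 5 were near no other annotated start. The strongest was the Uhg2 peak, 255 bp upstream of snoRNA:Me18S-A1576, and the RpS29 peak followed, 405 bp upstream of snoRNA:Psi18S-1275. The peaks of RpS6, RpS12 and RpL10Ab likewise lay upstream of snoRNA:Or-aca2, snoRNA:Me28S-A774b and snoRNA:Psi18S-920.

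Among the 8 near a gene that is no host, snoRNA:U3:54Ab had the highest signal, 479 in the conservative list and 93.5, 155 and 258 in the replicates. Its summit lay 250 bp upstream of the snoRNA start and 67 bp from the start of the transfer RNA (tRNA) gene tRNA:Leu-AAG-1-3. The second U3 gene of that locus, snoRNA:U3:54Aa, had a conservative signal of 147, a summit 12 bp from tRNA:Leu-AAG-1-2 and no peak in the replicates. The third U3 gene, snoRNA:U3:9B, had no peak in any list, the ranked ones included. Both U3 peaks thus lay beside the start of a tRNA gene.

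snoRNA:hts-a, inside hts, also had its peak at tRNA genes: the signal was 204, with 68.8 and 153 in replicates 1 and 3 and none in replicate 2, and the summit lay 5 bp from the nearest of 3 tRNA starts. snoRNA:Psi18S-176 had 362, with 86.1, 107 and 173 in the replicates. That summit lay 107 bp upstream of the snoRNA start, nearer than the start of lncRNA:CR44805 at 406 bp. snoRNA:Psi28S-2622 had 165 and a peak in replicate 3 alone, 5 bp from sncRNA:CR43701. snoRNA:Psi28S-1153 and its 2 unclassed neighbours on the same strand shared 1 peak of signal 117, absent from the replicates. Its summit lay 402 bp from CG13334 and 457 bp upstream of snoRNA:Psi28S-1153, but 88 bp upstream of the nearer of these neighbours. Only snoRNA:U3:54Ab and snoRNA:Psi18S-176 of these 8 had a peak in all 3 replicates.

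The 5 peaks near no other annotated start belonged to snoRNA:Psi28S-3342, snoRNA:Or-aca4, snoRNA:CG31191-a, snoRNA:Dek-a and snoRNA:Or-CD12. snoRNA:Psi28S-3342, the free-standing H/ACA gene shown above, had a summit 49 bp upstream of its start; its conservative signal was 279, with 66.0 and 174 in replicates 1 and 3 and none in replicate 2. snoRNA:Or-aca4, also free-standing and H/ACA, had the summit closest to a snoRNA start, 6 bp upstream, with 213 in the conservative list, 52.2 and 100.6 in replicates 1 and 3 and none in replicate 2. snoRNA:CG31191-a, in an intron of CG31191, was the member of the 5 bound in every replicate, at 197 in the conservative list and 69.6, 74.95 and 75.1 in the replicates, with its summit 86 bp upstream. snoRNA:Dek-a had 169 and a peak in 2 replicates, and snoRNA:Or-CD12, in RpL28, had 142, no replicate peak and a summit 447 bp downstream of its start. Of the free-standing genes as a whole, 5 of 9 H/ACA, 4 of 8 unclassed and 0 of 6 C/D genes were bound, and 2 of the 9 bound ones were so in all 3 replicates.

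Host promoters with and without a peak held the DRE at different shares. The DRE is the site of the factor DREF, which acts at promoters of growth and replication genes, and it was searched on both strands from 250 bases before to 50 after each annotated start. It stood in 40.4% of the 52 bound hosts and 4.35% of the 46 without a conservative peak, beside 27.8% of bound and 2.71% of unbound protein-coding genes and 10.2% of all protein-coding genes. Its core ATCGAT, which the DRE contains, stood in 65.4% and 10.9% of those hosts and in 26.3% of all protein-coding genes. Protein-coding genes at large thus showed a gap in the DRE of the same direction.

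The gap was widest in the ribosomal protein hosts. The DRE stood in 8 of the 13 bound ones (61.5%), among them RpS6, RpS12 and RpL10Ab, printed above for holding it, and in 0 of the 15 unbound ones. CTTTT on the gene's strand within 10 bases of a start is part of the pyrimidine tract at which ribosomal protein transcripts begin. It went the other way in this class, in 4 of 13 bound (30.8%) and 9 of 15 unbound ribosomal protein hosts (60.0%). RpL23A and RpL22 were printed above for holding it. In other protein-coding hosts it stood in 13.9% of the bound and 4.35% of the unbound. The shares were 5.59% of bound, 4.15% of unbound and 4.57% of all protein-coding genes. The direction in ribosomal protein hosts was thus not that of these sets, and the difference was not tested. Among other protein-coding hosts the DRE stood in 33.3% of the bound and 8.70% of the unbound, and GAGAG, on either strand, stood in 66.7% and 47.8%, beside 36.3% of all protein-coding genes. Of the fly core promoter sequences known by number, Motif 7 stood in 32.7% of bound and 6.52% of unbound hosts, beside 22.0% of bound and 6.45% of unbound protein-coding genes. CAGCTG stood in 13 of 52 bound and 4 of 46 unbound hosts, beside 32.9% and 17.8%. Motif 1 and Motif 6 went the other way in hosts than in protein-coding genes at large: Motif 1 stood in 1 of 52 bound and 6 of 46 unbound hosts, beside 7.54% and 3.86%, and Motif 6 in 1 of 52 and 5 of 46, beside 3.42% and 2.14%. These counts are small, and the difference was not tested. A gene with several starts has several windows, and a match is a run of letters, not a site shown to be used.

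**Figure D5:**
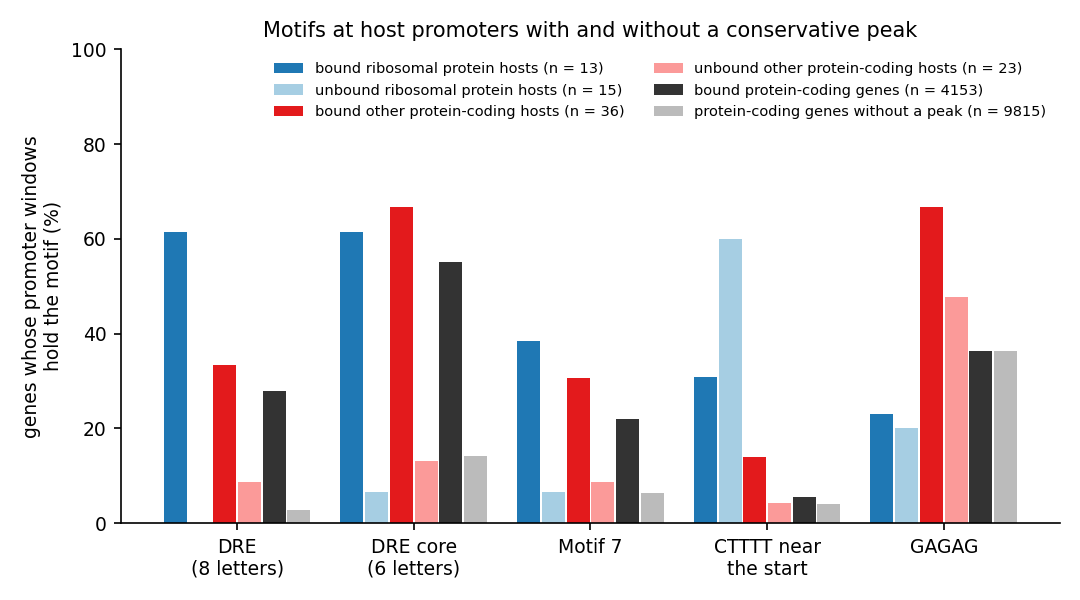
Share of genes whose windows from 250 bases before to 50 after a start hold each sequence (%), CTTTT being counted within 10 bases of a start, for bound and unbound hosts of both protein-coding classes and for all protein-coding genes with and without a peak. The DRE stands in 61.5% of bound ribosomal protein hosts and in 0% of unbound ones, and CTTTT in 30.8% and 60.0%. In other protein-coding hosts CTTTT stands in 13.9% of bound and 4.35% of unbound ones.

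The DRE was also searched at the summits, in a shorter window and per peak, so these shares are not comparable with those of the promoters. Within 50 bases of the summit it stood in 10 of the 69 host promoter peaks (14.5%, interval 8.07 to 24.7%), beside 15.7% of all promoter peaks. In replicates 1, 2 and 3 the host shares were 23.5%, 28.3% and 16.4%, beside 21.1%, 19.9% and 15.2%. Every one of these background values lay inside the interval of the host share, so any difference was within counting error.

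The proteins that assemble on snoRNAs or process them were looked at as a list of 14 genes, all of which were found in the annotation. In the conservative list 9 of the 14 were bound (64.3%, beside 29.7% of protein-coding genes). In replicates 1, 2 and 3 the counts were 6, 4 and 6 (42.9%, 28.6% and 42.9%), beside 21.1%, 22.3% and 28.6% of protein-coding genes, so that the share in replicate 2 was near the background. Of the H/ACA core proteins, Nop60B (504), Gar1 (221) and Nop10 (162) were bound and NHP2 was not. Of the C/D core proteins, hoip (167) and Nop56 (164) were bound, whereas Fib, the gene of the methyltransferase fibrillarin, and nop5 had no peak in any of the 4 lists. Both sets of core proteins thus held bound and unbound members.

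Among the factors of assembly and processing, Rrp6 (410), an exosome nuclease that trims RNA ends, coil (300), the gene of the Cajal body protein coilin, Nufip (289), an assembly factor, and Nopp140 (164), a nucleolar phosphoprotein, were bound, and pont and rept, a pair of related ATPase genes, were not. In all 3 replicates the bound genes were Nop60B, Rrp6 and coil: Rrp6 had signals of 116, 114 and 162, and coil had 67.7, 66.8 and 144. The remaining 6 were called in at most 2 replicates, and hoip in none. Nop60B, Fib and nop5 are themselves snoRNA hosts, so they count in both lists.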

How the data were processed

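Peaks were called in 3 libraries, all of 1 strain, and ranked or thresholded by the authors with the irreproducible discovery rate, on assembly dm6, per the labels and the deposited descriptions; the tools behind alignment and peak calling are not stated in what was read here. Each peak's deposited score is that rate scaled, with a ceiling of 1000. The deposited signal is the authors' value per peak on an unstated scale. No other group or control was used, and p-values were not computed, since genes are not replicates.

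The members and gene lists were chosen with earlier results of these data known. Summits (start plus offset) were matched to annotated starts of Ensembl BDGP6.54, release 115, with Python 3.11.15, pandas 2.3.3, numpy 2.4.6 and matplotlib 3.10.9. Sequences came from the RefSeq genome of Release 6, and every peak end lay within its chromosome lengths. Calling was tested on simulated data: 40 of 40 hosts planted with a peak were recovered. Wilson intervals are at 95%. Named were the 10 hosts of highest signal (1 is not reported here), the 5 holding most snoRNA genes, unbound hosts holding most (5, with ties), snoRNA genes bound away from a host start, and bound snoRNP genes; the members with high ranked scores, Sf3b3 in the plot and the sequences shown were chosen after values were seen. CG4038 and CG7637 of the snoRNP list were matched as Gar1 and Nop10 through RefSeq synonyms. The pyrimidine-tract, DRE and other motifs were searched as letters.

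Alternatives were distances of 250 and 1000 bp, any overlap in place of the summit, the upper 50% of peaks, single replicate lists, other series lists and summit windows; ranked lists at the lowest thresholded score, and leaving out Arpc2, were added after seeing the data.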

Additional observations from a re-analysis of the deposited data

How the results depend on the processing

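The counts of bound hosts (52) and of hosted snoRNA genes with a bound host (126) stayed within 1.5 times their value under each alternative run. The count of snoRNA genes bound at their own start depended on the distance: 23 at 500 bp became 11 at 250 bp, 55 at 1000 bp, 35 with any overlap of peak and window and 8 with the upper 50% of peaks. It was 13 and 12 in replicates 1 and 2, and 14 and 13 with their ranked peaks at or above the lowest thresholded score, an alternative added after seeing the data. Of the 10 of them that also lay at a host start, 3 were left at 250 bp, 37 were counted at 1000 bp, 5 with the upper 50% of peaks and 19 with any overlap. The replicate mean of own-start shares, 5.13%, became 3.66% at 250 bp and 12.2% at 1000 bp, and the mean of host shares, 46.6%, became 42.2% at 250 bp. The share of host promoter peaks with the DRE, 14.5% within 50 bases of the summit, was 26.1% within 100 bases, 23.5% in replicate 1 and 28.3% in replicate 2. Over all promoter peaks the shares at these settings were 15.7%, 20.9%, 21.1% and 19.9%. The 9 bound snoRNP genes were 4 in replicate 2. The cause of the differences between replicates was not tested; a wider distance or window counts more by construction. No paired analysis was possible because all libraries belong to 1 group. Read depth is unknown, so a host without a peak may lie below what a list can show, and whole embryos cannot place a peak in a tissue.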
